A study of Homo sapiens with 2 samples.

Results

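The miR-25/92 seed family was examined in a pulldown of the long non-coding RNA SNHG15 from BT549 cells, an established human breast cancer line. It was followed through 4 of the 407 miRNAs in the count table: hsa-miR-92a-3p, hsa-miR-25-3p and hsa-miR-92b-3p, which carry the family seed, and hsa-miR-92b-5p, the other arm of the hairpin that gives miR-92b-3p. The members were named by their rows in the table, and were chosen on the read numbers of these same 2 libraries, so their ratios are given as a description with no test. All 4 passed a minimum of 20 reads in a library. In both groups the cells overexpressed SNHG15 carrying MS2 hairpins, phage RNA loops to which the MS2 coat protein (MCP) binds. One group was the RNA held by amylose resin coated with an MBP-MCP fusion, in which the maltose binding protein (MBP) grips the resin, called the MBP-MCP resin here. The other was the RNA held by amylose resin without that protein, called the bare resin. Lysate stayed on the resin for 5 h at 4 °C and the resin was washed 3 times. The comparison addresses which miRNAs associate with SNHG15. Each resin gave 1 library, so differences could not be checked against replicates. No library of MBP-MCP resin from cells without the tagged RNA was analysed here, so RNA held by the protein and RNA held through SNHG15 cannot be told apart.

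A miRNA guides an Argonaute protein to messenger RNAs through its seed, bases 2 to 8 from its 5′ end, and miRNAs that share a seed can repress the same messages. The miR-25/92 seed family is known for repressing BCL2L11 (BIM), which promotes cell death, and CDKN1C (p57), an inhibitor of the cell cycle. Its genes lie in separate transcripts: miR-92a in the MYC-driven miR-17-92 cluster and in the related miR-106a-363 cluster, miR-25 in the miR-106b-25 cluster inside the replication gene MCM7, and miR-92b on its own. Several members are frequently raised in tumours, and miR-92a-3p is also known to restrain the growth of blood vessels.

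The mature sequences of the members, and of miR-32-5p as the one other miRNA in the table with this seed, are shown first because the members are read apart by few bases. They are from RefSeq on GRCh38.p14, 5′ to 3′, with the seed in capitals.
hsa-miR-92a-3p: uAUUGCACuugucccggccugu
hsa-miR-25-3p: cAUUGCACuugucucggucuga
hsa-miR-92b-3p: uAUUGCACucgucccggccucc
hsa-miR-32-5p: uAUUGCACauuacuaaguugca
hsa-miR-92b-5p: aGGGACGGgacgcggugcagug

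All 5 are 22 bases long, and the scaled reads carry no length term. Levels of different miRNAs compare reads and not amounts, since capture of each sequence in the library was not measured. The RefSeq set used here holds 6 mature human miRNAs with the seed AUUGCAC, of which 4 were in the table. Absent from it were miR-363-3p and miR-367-3p. The first 3 sequences stay close outside the seed too. Counted from the 5′ end of miR-92a-3p, miR-92b-3p has 3 differences of 22 bases (U10C, G21C and U22C), and miR-25-3p has 4 (U1C, C14U, C18U and U22A). miR-32-5p has 11 differences from miR-92a-3p, all after the seed. A read of miR-92a-3p or miR-92b-3p that lacks its last 2 bases is told apart only at base 10. The authors' rule for reads that match more than 1 miRNA was not given in the sources used here, so the split of reads between these members is uncertain. miR-92b-5p has another seed, GGGACGG, which no other mature human miRNA of that RefSeq set holds. It belongs with the family through its hairpin only.

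The hairpins show where each arm lies, with the mature arms in capitals and coordinates on GRCh38.p14.
MIR92A1: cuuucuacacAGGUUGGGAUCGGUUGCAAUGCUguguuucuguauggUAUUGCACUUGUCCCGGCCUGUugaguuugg
MIR92A2: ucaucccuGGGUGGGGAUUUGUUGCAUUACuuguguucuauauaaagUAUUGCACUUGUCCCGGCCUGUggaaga
MIR25: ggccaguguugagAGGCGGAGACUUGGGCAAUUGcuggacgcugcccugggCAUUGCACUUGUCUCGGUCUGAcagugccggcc
MIR92B: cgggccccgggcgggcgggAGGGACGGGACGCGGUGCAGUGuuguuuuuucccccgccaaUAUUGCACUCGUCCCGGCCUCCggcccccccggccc

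MIR92A1 lies at chr13:91351314-91351391 on the plus strand, within MIR17HG, the host transcript of the miR-17-92 cluster, where 3 annotated transcripts span it and 2 exons overlap it. MIR92A2 lies at chrX:134169538-134169612 on the minus strand, over an exon of the non-coding gene AC002407.1. Both give the same miR-92a-3p, so its reads cannot be assigned to either gene, while their 5p arms differ. MIR25 lies at chr7:100093560-100093643 on the minus strand, within MCM7 on the same strand. It was spanned by 8 annotated MCM7 transcripts and overlapped by 0 of their exons, so it is intronic. MIR92B lies at chr1:155195177-155195272 on the plus strand, over an exon of AC234582.1, annotated as an antisense RNA. Its hairpin has 75.0% G and C bases, against 48.7% in MIR92A1, 45.3% in MIR92A2 and 63.1% in MIR25.

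The MBP-MCP library held 202560 miRNA reads and the bare-resin library 111414, a ratio of 1.82. The ratios compare reads per 1000000 miRNA reads of a library (RPM), which are shares and not amounts of RNA on the resin. Ratios of RPM carry no prior count, while log2 ratios carry a prior count of 0.5 reads scaled by library size. The intervals are exact Clopper-Pearson intervals at 95% and cover counting error only. Use of molecular identifiers was not given in the sources used here, so reads may not be independent molecules. Over the 161 miRNAs that reached 20 reads in at least 1 library the median log2 ratio was -0.16.

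**Figure D1:**
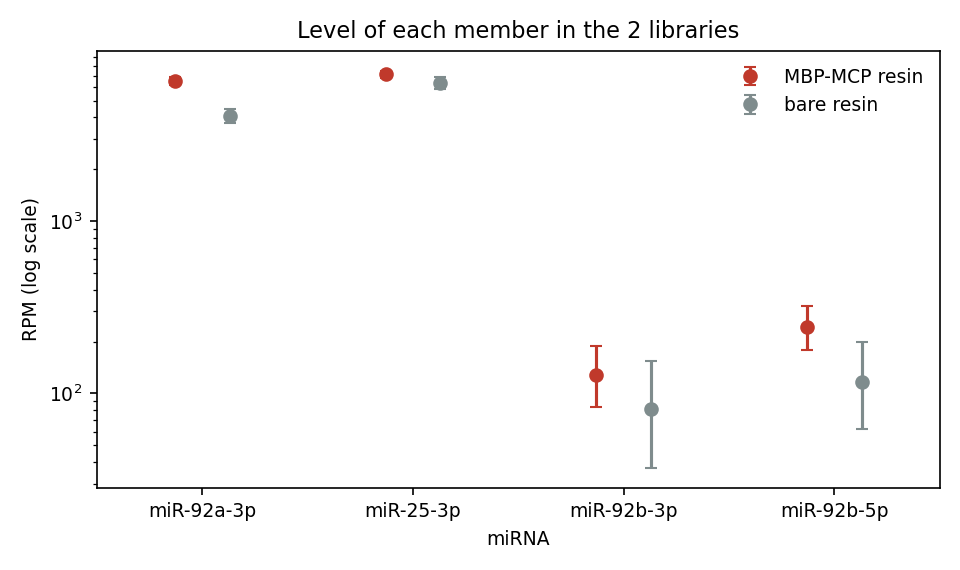
RPM of the 4 members (log scale) in the MBP-MCP library (left of each pair) and the bare-resin library (right), 1 library each; bars are 95% Clopper-Pearson intervals. miR-92a-3p, at 6512 against 4057 RPM, has intervals that stand apart, while those of miR-25-3p, miR-92b-3p and miR-92b-5p overlap.

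hsa-miR-92a-3p, known to repress the integrin ITGA5 and the endothelial factor KLF2, had 1319 reads in the MBP-MCP library and 452 in the bare-resin library. That is 6512 RPM (interval 6166 to 6872) on the MBP-MCP resin and 4057 (3692 to 4448) on the bare resin. The 2 intervals do not overlap, and the ratio was 1.61 (1.44 to 1.79), a log2 ratio of 0.68. Its rank by reads was 19 on the MBP-MCP resin and 29 on the bare resin.

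hsa-miR-25-3p, the guide strand of the miR-106b-25 cluster that carries this seed, had the most reads of the members on both resins. It had 1438 reads on the MBP-MCP resin and 706 on the bare resin, or 7099 (6738 to 7474) and 6337 (5879 to 6820) RPM. Its ratio was 1.12 (1.02 to 1.23) and its log2 ratio 0.16. Its rank was 17 on the MBP-MCP resin and 21 on the bare resin. The excess of miR-25-3p was thus smaller than that of miR-92a-3p, although both carry the same seed.

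The arms of MIR92B had far fewer reads. hsa-miR-92b-3p, the arm with the family seed, had 26 reads on the MBP-MCP resin and 9 on the bare resin, or 128 (83.8 to 188) and 80.8 (36.9 to 153) RPM. Its log2 ratio was 0.65 and its ratio 1.59, with an interval of 0.722 to 3.85 that includes 1. hsa-miR-92b-5p, the arm with the GC-rich seed, had 49 reads on the MBP-MCP resin and 13 on the bare resin. Its levels were 242 (179 to 320) and 117 (62.1 to 200) RPM, a ratio of 2.07 (1.11 to 4.17) and a log2 ratio of 1.03. Of the 4 members it had the highest ratio and rested on the second lowest number of reads.

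**Figure D2:**
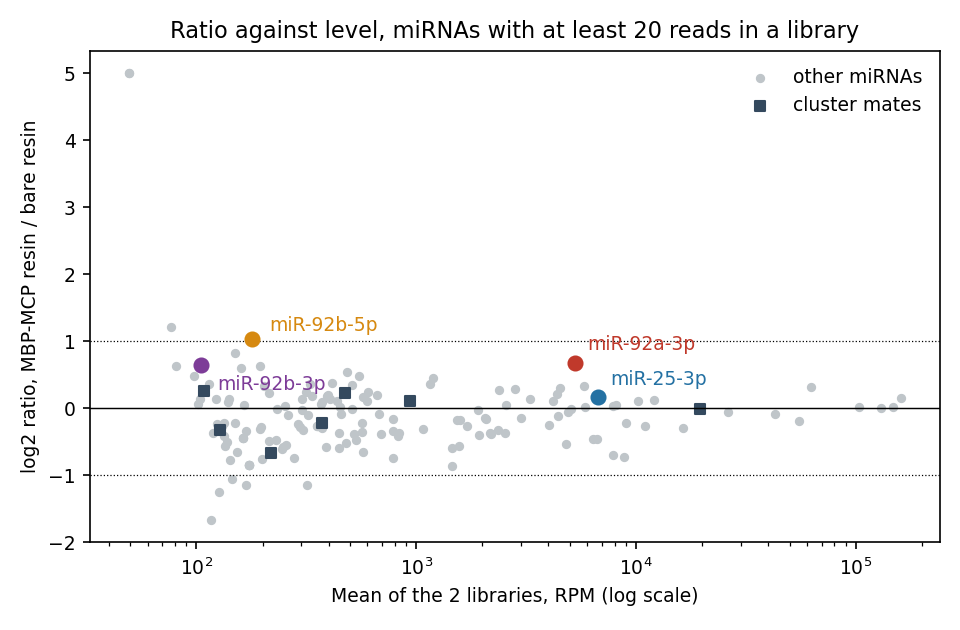
The log2 ratio of MBP-MCP to bare resin (vertical) against the mean level of both libraries in RPM (horizontal, log scale) for the 161 miRNAs that reached 20 reads; dotted lines mark 2-fold and squares the other miRNAs of the host clusters. miR-92a-3p, at 0.68, lies above the other miRNAs of like abundance, miR-25-3p, at 0.16, lies among them, and the highest gray point is a pair of predicted miRNAs with a bare-resin value of 0.

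All 4 members were higher on the MBP-MCP resin, in a comparison where 39.8% of the 161 miRNAs were higher in any amount. At least 1.5-fold higher were 3 of the 4 members, all but miR-25-3p, against 6.21% of the 161. At least 2-fold higher was 1 of the 4, miR-92b-5p, against 2.48% of the 161. Intervals lay above 1 for 3 of the 4, all but miR-92b-3p, against 11.2% of the 161. Since the members were chosen with these ratios known, nothing is read from those shares. By log2 ratio miR-92b-5p had rank 4 of the 161, miR-92a-3p rank 6, miR-92b-3p rank 7 and miR-25-3p rank 37. Of the 105 that reached 50 reads, miR-92a-3p had rank 1 and miR-25-3p rank 23. The members just inside and outside 2-fold were miR-92b-5p at 1.03 and miR-92a-3p at 0.68 on the log2 scale.

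The members also differed among themselves, and ratios between members of one library need no scaling between the libraries. miR-92a-3p made up 47.8% (46.0% to 49.7%) of the reads of miR-92a-3p and miR-25-3p together on the MBP-MCP resin and 39.0% (36.2% to 41.9%) on the bare resin. The number of miR-92a-3p reads per miR-25-3p read was 1.43 times as high on the MBP-MCP resin (1.24 to 1.65). In both libraries miR-25-3p therefore had more reads than miR-92a-3p beyond counting error, but by less on the MBP-MCP resin. Reads of miR-92a-3p per read of miR-92b-3p were 1.01 times as high (0.413 to 2.25), an interval too wide to show whether these close relatives moved alike. For miR-92b-5p against miR-25-3p the value was 1.85 (0.980 to 3.74), and against miR-92a-3p it was 1.29 (0.682 to 2.62), so both intervals include 1.

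The 4 measured miRNAs with the seed AUUGCAC held 2792 reads on the MBP-MCP resin and 1170 on the bare resin. Their sum was 1.38% (1.33% to 1.43%) of the MBP-MCP reads and 1.05% (0.991% to 1.11%) of the bare-resin reads, a ratio of 1.31 (1.23 to 1.41). miR-25-3p gave 51.5% of it on the MBP-MCP resin and 60.3% on the bare resin, and miR-92a-3p gave 47.2% and 38.6%. miR-92b-3p gave 0.931% on the MBP-MCP resin and 0.769% on the bare resin, and miR-32-5p gave 0.322% and 0.256%. Without miR-92a-3p the sum of the other 3 was 1473 reads on the MBP-MCP resin and 718 on the bare resin, and the ratio was 1.13 (1.03 to 1.24).

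miR-32-5p, which is made from an intron of a gene on chromosome 9 and has an A- and U-rich 3′ part, had 9 reads on the MBP-MCP resin and 3 on the bare resin. Its ratio was 1.65 with an interval of 0.412 to 9.48. The mature sequences also differ in base composition, with 12 G or C of 22 bases in miR-92a-3p, 11 in miR-25-3p, 14 in miR-92b-3p, 16 in miR-92b-5p and 7 in miR-32-5p. The median share over the 85 known miRNAs that reached 50 reads and matched a RefSeq sequence (89.5% of 95 such miRNAs) was 45.5%, and 54.5% in miR-92a-3p ranked 12 among them. Across those 85 miRNAs, which share their libraries and are not replicates, GC content and log2 ratio correlated weakly, with Spearman's rho at 0.20 and Pearson's r at 0.24. Without the members among them, Spearman's rho was 0.18 over 83 miRNAs. The part of base composition in the members' ratios was not tested.

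The other arms of the hairpins were compared next, since both arms of a hairpin come from 1 precursor and the arm that Argonaute keeps is usually the more abundant. In MIR92B the 5p arm had more reads in both libraries, 49 against 26 on the MBP-MCP resin and 13 against 9 on the bare resin. The 3p count depends on how reads shared with miR-92a-3p were assigned, which was not given. Which arm Argonaute keeps was not tested. It made up 65.3% (53.5% to 76.0%) of the reads of both arms on the MBP-MCP resin, an interval above equal shares, and 59.1% (36.4% to 79.3%) on the bare resin, an interval that includes them. The reads of miR-92b-5p per read of miR-92b-3p were 1.30 times as high on the MBP-MCP resin (0.430 to 3.81), an interval that includes 1. MIR25 gave the opposite picture, with nearly all reads on the 3p arm. miR-25-5p had 20 reads on the MBP-MCP resin and 7 on the bare resin, 1.37% (0.840% to 2.11%) and 0.982% (0.396% to 2.01%) of the reads of both arms. Its ratio between the resins was 1.57 (0.638 to 4.40), and its reads per miR-25-3p read were 1.40 times as high (0.566 to 3.94). miR-32-3p ran the other way, with 1 read on the MBP-MCP resin and 5 on the bare resin, a ratio of 0.110 (0.00233 to 0.983) whose upper bound was 1.13 by TMM scaling and 1.19 by DESeq2 scaling. The 5p arms of MIR92A1 and MIR92A2 were not in the table.

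**Figure D3:**
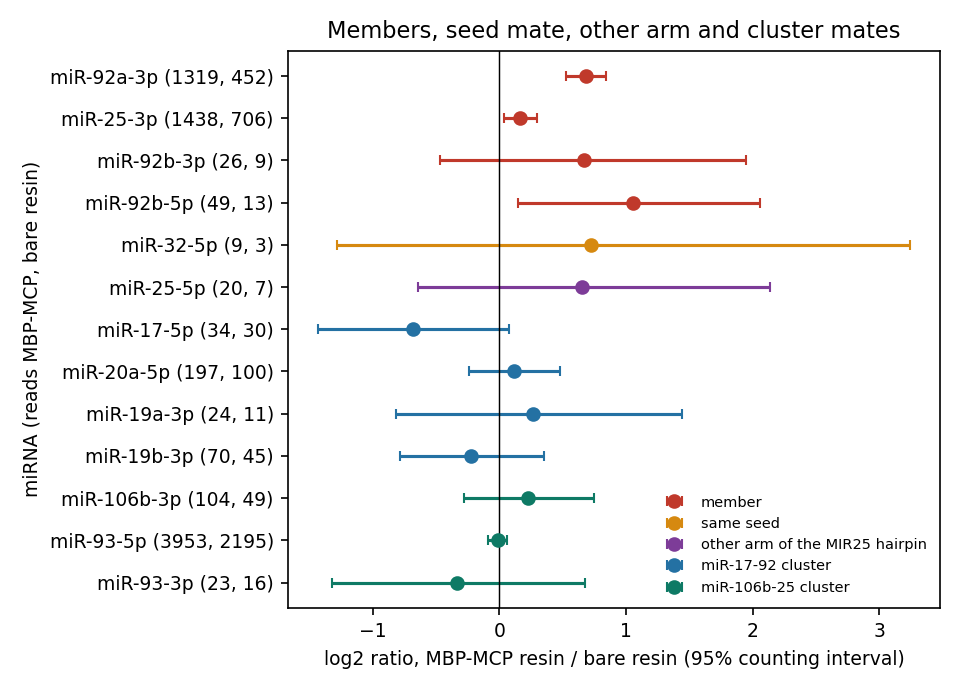
The log2 ratio of RPM, MBP-MCP over bare resin, with no prior count and with 95% counting intervals, for the 4 members, miR-32-5p, miR-25-5p and the cluster mates that reached 20 reads; reads on the MBP-MCP and the bare resin stand beside each name. miR-92a-3p, miR-25-3p and miR-92b-5p have intervals above 0, and with this scaling by total reads all 7 cluster mates have intervals that include 0.

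The miRNAs made from the same primary transcripts had ratios on both sides of 1. Of the 11 measured mates in the miR-17-92 and miR-106b-25 clusters, 6 were higher and 5 lower on the MBP-MCP resin. With total reads 0 of the 11 mates had an interval above 1 and 0 had an interval below 1. Of the 161 miRNAs that reached 20 reads, which include only 7 of these mates, 11.2% had an interval above 1. The share of the 161 with an interval below 1 was not counted. With TMM factors the interval of 1 mate lay above 1, miR-93-5p, and with DESeq2 size factors those of 2 did, miR-93-5p and miR-20a-5p. Among the 7 mates with at least 20 reads, log2 ratios ran from -0.67 to 0.26 with a median of -0.01, and 3 were above 0, against 39.8% of the 161. Scaling by TMM factors put 4 above 0, and scaling by DESeq2 size factors put 5 above 0, since both shift all miRNAs. In the miR-17-92 cluster, miR-20a-5p, which shares the seed of miR-17-5p and represses E2F1, had 197 reads on the MBP-MCP resin and 100 on the bare resin, a ratio of 1.08 (0.848 to 1.39). miR-17-5p had 34 and 30 reads, a ratio of 0.623 (0.370 to 1.05), and miR-19b-3p, of the miR-19 seed family, had 70 and 45, a ratio of 0.856 (0.580 to 1.27). Reads of miR-92a-3p per read of miR-20a-5p were 1.48 times as high on the MBP-MCP resin (1.13 to 1.94). In the miR-106b-25 cluster, miR-93-5p, with the seed of miR-17-5p, had 3953 reads on the MBP-MCP resin and 2195 on the bare resin, a ratio of 0.991 (0.940 to 1.04), but 1.13 (1.08 to 1.20) by TMM scaling and 1.20 (1.14 to 1.27) by DESeq2 scaling. miR-106b-3p had 104 and 49 reads, for a ratio of 1.17 (0.824 to 1.67). Reads of miR-25-3p per read of miR-93-5p were 1.13 times as high on the MBP-MCP resin (1.02 to 1.26). Of the 7 mates listed only for the miR-106a-363 cluster, in which MIR92A2 lies, 0 were in the table. miR-19b-3p was listed under the miR-17-92 cluster alone, and its reads were not assigned to a gene.

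By the nearest log2 ratio over the 2 libraries, among 52 other known miRNAs with at least 100 reads in each library, miR-92a-3p was most like miR-183-5p, a miRNA of sensory cells. The log2 ratio of miR-183-5p was 0.46. miR-155-5p, of activated lymphocytes, was next at 0.37, and miR-10a-5p, made from a HOX cluster, at 0.33. All 3 lay below miR-92a-3p, which had the highest log2 ratio of these miRNAs. miR-25-3p was most like miR-16-5p at 0.15, miR-30a-5p at 0.14 and miR-125a-5p at 0.13. A likeness over 2 libraries describes 1 ratio only.

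**Figure D4:**
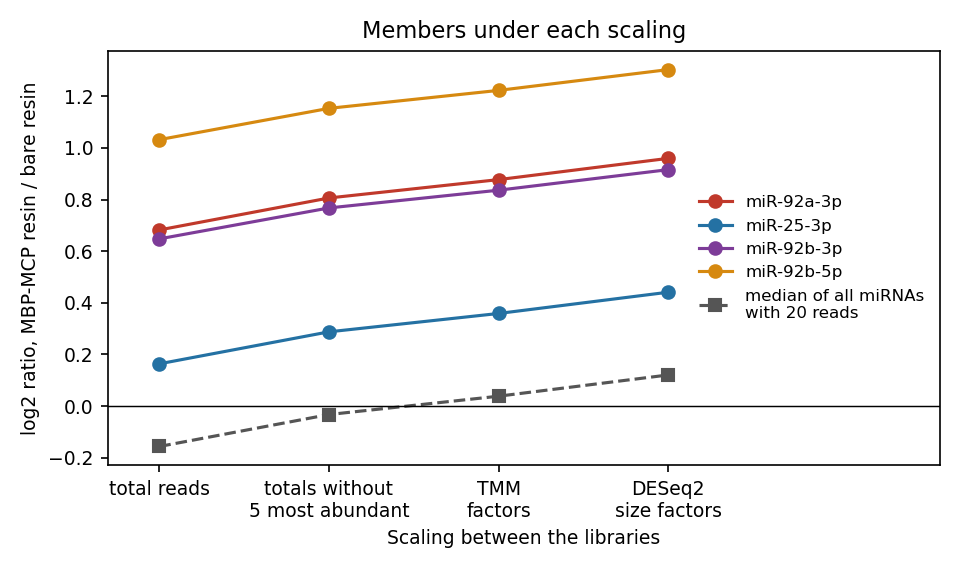
The log2 ratio of each member, MBP-MCP over bare resin, and the median of the 161 miRNAs (dashed), under 4 ways of scaling the libraries. Every line shifts upward together from total reads to DESeq2 size factors, with miR-92a-3p at 0.68 and 0.96, miR-25-3p at 0.16 and 0.44 and the median at -0.16 and 0.12. The members keep their distance from the median by construction, since a scaling applies a single factor to each library.

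The size of each ratio depended on how the libraries were scaled. Each scaling drawn in the plot of members by scaling applies a single factor to each library, which shifts all log2 ratios nearly alike. The order of the members and their distance from the median are therefore kept by construction and are no finding. With DESeq2 size factors the log2 ratio was 1.30 for miR-92b-5p, 0.96 for miR-92a-3p, 0.92 for miR-92b-3p and 0.44 for miR-25-3p. The median of the 161 miRNAs was -0.16 with total reads and 0.12 with DESeq2 size factors. Relative to that median miR-92a-3p stood at 0.84 and miR-25-3p at 0.32 under both.

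In the authors' deposited table, miR-92a-3p has a p-value of 6.87e-05 and an adjusted p-value of 0.00676 with a log2 fold change of 0.68. It is the only known miRNA in the authors' deposited table with an adjusted p under 0.05, and it is not among the 26 miRNAs called there, whose log2 fold changes all have a size of at least 1.05. miR-92b-5p is called higher in the authors' deposited table, as were 16 of 407 miRNAs (3.93%), with an adjusted p-value of 0.219. The authors' deposited table gives adjusted p-values of 0.698 for miR-25-3p and 0.774 for miR-92b-3p. Those p-values compare 1 library with 1 library, and the file headers do not state which dispersion was used. Predicted miRNAs in the authors' deposited table also have an adjusted p under 0.05, so miR-92a-3p is not alone in this.

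The seed of each member was searched in the 10 SNHG15 transcripts of GENCODE 29, which run from 505 to 3116 bases, on the transcribed strand. Which isoform the construct holds was not given in the sources used here. As a description, the 7-base match to bases 2 to 8 of miR-92a-3p, miR-25-3p and miR-92b-3p, GTGCAAT, was in 0 of the 10 transcripts, and its 6-base part for bases 2 to 7, TGCAAT, was in 0 as well. Among 1040 other lincRNA transcripts within 10% of 953 bases, the length of an SNHG15 transcript near the middle of the 10, 6.63% held GTGCAAT and 24.1% held TGCAAT. For miR-92b-5p the 7-base match CCGTCCC was in 0 of the 10 transcripts, against 2.40% of the 1040, and the 6-base match CGTCCC was in 1, SNHG15-206, against 7.40%. These letters describe the annotated transcripts and say nothing of other ways to associate. The 10 transcripts come from 1 gene and are not independent of each other. The 1040 were matched to 953 bases only, so their shares are no test of the 10.

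The cell type was compared with miRNA markers, since miR-92a-3p and miR-25-3p are also abundant in red blood cells. BT549 is a mesenchymal-like line. Of 10 mesenchymal markers 6 were in the table, all but miR-145-5p, miR-199a-5p, miR-214-3p and miR-10b-5p. Their sum was 62875 RPM on the MBP-MCP resin and 69569 on the bare resin, mostly miR-125b-5p, while miR-199a-3p had 1 read in each library. Of 6 epithelial markers 1 was in the table, miR-200a-3p, with 1 read in each library. Of 4 erythroid markers 3 were, all but miR-451a, with a sum of 666 RPM on the MBP-MCP resin and 583 on the bare resin. Nearly all of it was miR-486-5p, with 133 reads on the MBP-MCP resin and 62 on the bare resin, a ratio of 1.18 (0.867 to 1.62), while miR-144-3p had 0 and 2 reads and miR-144-5p 2 and 1. Of 4 leukocyte markers 2 were, miR-142-3p with 13 and 11 reads and miR-223-3p with 1 in each. Their part in the members' ratios was not tested.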

How the data were processed

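RNA from the resins (mirVana kit) was sequenced as QIAseq miRNA libraries, per the labels' protocols, 1 library for each resin. The authors deposited raw read counts of 407 miRNAs, 357 named and 50 predicted. The genome build was GRCh38, per the submitters' processing notes. The sources used here name no aligner or miRNA annotation. The authors' values headed Tpm are reads per 1000000 reads (RPM) with no length term, and sum to 999655 for the MBP-MCP resin and 999650 for the bare resin, so the library totals they imply (202630 for the MBP-MCP resin and 111453 for the bare resin) lie slightly above the sums of the counts. The deposited log2 fold change is the log2 ratio of those values. The p-values and adjusted p-values (Qvalue) are the authors', per the file headers. There were 0 columns of other samples.

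Ratios were computed from the counts with Python 3.11.15 and SciPy 1.17.1, scaled by summed counts; scaling factors came from edgeR 4.0.16 (TMM) and DESeq2 1.42.0. With 1 library per group no test was made. Intervals were tested on simulated counts that held only the counting error they assume. That test cannot address duplicate reads or differences between replicate libraries. Positions and transcripts are from GENCODE 29 and sequences from RefSeq (GRCh38.p14). The named miRNAs were the members, seed mates, other arms, cluster mates, markers and the 3 nearest ratios of miR-92a-3p and miR-25-3p. The members, lists and settings were chosen with earlier results of these data known.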

Additional observations from a re-analysis of the deposited data

How the results depend on the processing

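No paired analysis was possible because each resin has 1 library, and no replicate could be left out for the same reason. All 4 members and the family sum stayed above 0 on the log2 scale under every scaling and prior count tried. With TMM factors the log2 ratio was 0.88 for miR-92a-3p, 0.36 for miR-25-3p and 0.59 for the family sum. With DESeq2 size factors it was 0.96, 0.44 and 0.67. The family sum was 0.52 with totals that leave out the 5 most abundant miRNAs, and 0.17 without miR-92a-3p, against 0.39 as reported. miR-92b-5p was under 2-fold with a prior count of 5, at 0.88. Library totals implied by the deposited Tpm values, tried after seeing the data, changed no log2 ratio by 0.001. Of the 11 cluster mates, 1, miR-93-5p, had an interval above equality when the 5 most abundant miRNAs were left out of the total, a count also added after seeing the data. Without the 5 most abundant miRNAs in the total, the family held 3.66% of the MBP-MCP reads and 2.56% of the bare-resin reads.

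The number of miRNAs at least 2-fold higher on the MBP-MCP resin was 4 of 161. It was 2 without predicted miRNAs, 2 with a prior count of 5, 75 with no read minimum, 0 with a minimum of 50 reads, 10 at 1.5-fold and 2 at 4-fold. The number at least 2-fold lower was 5. It was 2 with TMM factors, 1 with DESeq2 size factors, 1 without predicted miRNAs, 2 with a prior count of 5, 79 with no read minimum, 0 with a minimum of 50 reads, 23 at 1.5-fold and 0 at 4-fold. The cause was not tested, except that a prior count, a read minimum, a fold limit or the removal of predicted miRNAs changes which miRNAs can be counted. Among the miRNAs with the family seed, miR-92b-3p and miR-32-5p had the fewest reads and the widest intervals, with 26 and 9 reads on the MBP-MCP resin and 9 and 3 on the bare resin.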
